A study of Mus musculus with 9 samples.

Results

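The HSP70 and HSP110 chaperones are described here through 8 genes, taken by symbol from the 54532 genes of the deposited count table: Hspa8, Hspa1a, Hspa1b, Hspa2, Hsph1, Hspa4, Hspa4l and Hspa14. HSP70 proteins bind unfolded stretches of other proteins in a cycle driven by ATP, J-domain proteins bring them clients and start ATP hydrolysis, and exchange factors release the ADP that ends the cycle. The HSP110 proteins are distant HSP70 relatives that act as exchange factors for HSP70 and help it to take apart aggregates. Some members of the family are made in all cells, and others are known for their induction by heat, oxidants and metals through heat shock factor 1, which binds repeated GAA units in their promoters.

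RNA was sequenced from 4T1 cells, a mouse mammary carcinoma line grown in high glucose DMEM with serum, in 3 groups of 3 libraries. Control cells received medium alone in normal culture, Cu_TCPP cells received Cu-TCPP(Fe)-PEG, labelled as a GSH-consuming state, and Au_TCPP cells received Au/Cu-TCPP(Fe)-PEG, labelled as GSH-consuming with glucose-like oxidase activity. Treatments lasted 24 h, and the sources used here do not give doses. Whether the libraries of a group stem from different cultures is not said in the labels, and the p-values therefore reflect the spread of these libraries alone, which may be technical.

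Library totals lay between 15477324 and 17494776 counts. All 6 epithelial markers passed the filter on low counts, with a summed level of 2929.8 to 3188 CPM in Control, 2850.1 to 3185 CPM in Cu_TCPP and 4412 to 5334 CPM in Au_TCPP. Of 6 leukocyte markers 1 passed it, Cd68, and their sum was 25.2 to 29.1, 9.13 to 13.6 and 53.3 to 75.2 CPM in the same groups, with Adgre1 at 0 throughout. Of 5 fibroblast markers 2 passed it (sums of 35.2 to 40.6, 16.3 to 19.7 and 26.7 to 31.7 CPM, Pdgfrb at 0 throughout), and 4 endothelial markers summed to at most 0.395 CPM in any library. The part of these differences in the results was not tested. Mitochondrial genes took 2.37% of the reads in the second Au_TCPP library, against 1.09 to 1.47% in the other 8. The Au_TCPP libraries had TMM factors of 0.793 to 0.889 against 1.07 to 1.12 in the other groups, so that scaling by library totals alone moved the median log2 fold change of all genes to -0.43 for Au_TCPP against Control. Changes below are relative to that shift. Levels are in CPM, counts scaled by library size and TMM factor, given in the order of replicates 1, 2 and 3. Adjusted p-values are from edgeR's quasi-likelihood test over 13915 genes, and "rose" or "fell" marks an adjusted p under 0.05.

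With Au_TCPP every one of the 8 genes was higher than in Control. Hspa1a, with 0 to 3 counts in Control, is given by its counts below. The other 7 ran from 1.71-fold for Hspa14 and 1.74-fold for Hspa2 to 47.1-fold for Hsph1 and 353-fold for Hspa1b. All 8 rose, where edgeR called 69.1% of the 13915 genes tested, 34.4% higher and 34.7% lower. Hspa1a was tested only because of its counts in Au_TCPP, so its place in that count was fixed by the filter, and without it 7 of 7 rose. The median log2 fold change of the 8 genes was 2.28, against -0.01 for all genes tested. Without Hspa1a the median was 1.42, the value of Hspa4l. The 8 genes were chosen with earlier results of these data known, so their counts beside all genes are a description. Of all genes, edgeR called 4783 higher and 4828 lower, a split that became 2626 and 7098 with library totals alone. The Au_TCPP libraries lay wholly above the Control libraries for all 8 genes, or 7 of 7 without Hspa1a, as for 35.3% of all genes. In RNA from a whole culture, a change within each cell and a change in which cells remained cannot be told apart.

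With Cu_TCPP the changes were smaller. Hsph1, Hspa1b, Hspa4 and Hspa14 rose by 1.54-fold to 1.80-fold, Hspa8, Hspa4l, Hspa1a and Hspa2 did not pass, and none fell. These 4 of 8 stand against 40.4% of the genes tested that were called, 19.2% higher and 21.2% lower, with a median log2 fold change of 0.69 for the 8 genes and -0.01 for all. Without Hspa1a, which had 11 against 5 counts here, the median was 0.62, the value of Hspa14. The same 4 genes had all Cu_TCPP libraries above all Control libraries, as did 29.4% of all genes. Between the materials, 7 of the 8 genes were higher with Au_TCPP than with Cu_TCPP, and Hspa14 did not pass, where 65.9% of all genes were called, 34.6% higher and 31.3% lower. Hspa1a is again among the 7 through the filter alone, and without it 6 of 7 were higher. The 7 genes also lay wholly above Cu_TCPP, or 6 of 7 without Hspa1a, as did 34.4% of all genes. Of all genes, 4814 were called higher and 4362 lower in that comparison, or 2830 and 6526 with library totals alone. The comparisons share libraries in pairs, so they are not independent of each other.

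**Figure D1:**
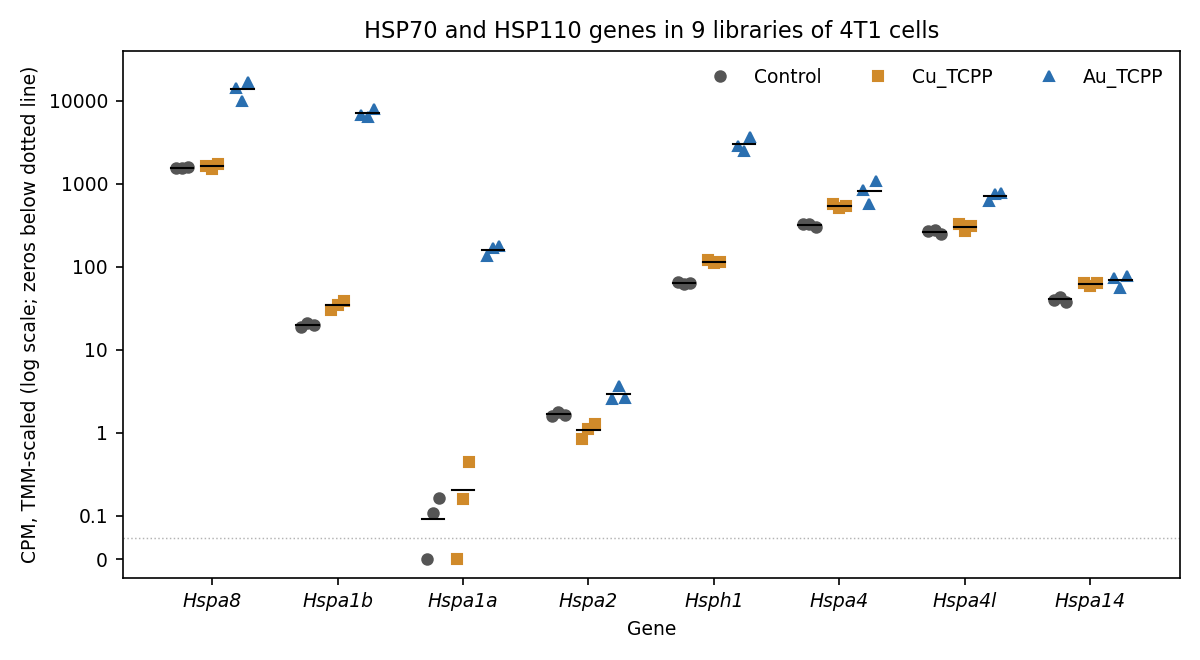
CPM of the 8 genes (log scale, zeros drawn below the dotted line) in the 3 Control, 3 Cu_TCPP and 3 Au_TCPP libraries, with a bar at each mean. Hspa1b stood at 18.8 to 21.2 CPM in Control and 6403 to 8016 CPM in Au_TCPP, while Hspa14 changed by less than 1 log2 unit.

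Hspa8 encodes HSC70, the constitutive HSP70 of the cytosol that also uncoats clathrin vesicles. It stood at 1530.2, 1554 and 1583 CPM in Control, at 1658, 1518 and 1719 CPM in Cu_TCPP and at 14190.2, 9975 and 16906 CPM in Au_TCPP. The Control and Cu_TCPP libraries overlapped, and all Au_TCPP libraries lay above both, with replicate 2 the lowest. Against Control, Hspa8 rose 8.80-fold with Au_TCPP (log2 fold change 3.14 ± 0.154 SE, n = 3, adjusted p = 1.0e-09 by edgeR). With Cu_TCPP its log2 fold change was 0.07, with a 95% interval of -0.24 to 0.37 (adjusted p = 0.73 by edgeR), so a rise of up to 0.37 log2 units was not excluded. By FPKM, the deposited level per kilobase of gene, Hspa8 ranked 92nd of the genes tested in Control and 10th in Au_TCPP. It took 0.173% ± 0.00243 of all counts in Control and 1.13% ± 0.228 in Au_TCPP (SD, n = 3). Hspa8 (ENSMUSG00000015656) lies on the plus strand of mm10 chromosome 9, 40800984 to 40810087, and its main transcript has 9 exons. Of the 50-base stretches in its annotated transcripts, 38.6% also occur in transcripts of 14 other genes, 11 of them predicted Gm genes and 3 small nucleolar RNA genes in its introns. Those 14 genes together held 168 counts per library in Control and 987 in Au_TCPP, far fewer than Hspa8 itself. How reads with several matches were counted is not given. If such reads were dropped, both sides would lose them, so these counts do not limit the effect on the level of Hspa8.

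Hspa1b and Hspa1a encode the stress-inducible HSP70 and are neighbours on the minus strand of mm10 chromosome 17, Hspa1b (ENSMUSG00000090877) at 34956436 to 34959238 and Hspa1a (ENSMUSG00000091971) at 34969190 to 34972156. Each has 1 exon and no intron. Hspa1b stood at 18.8, 21.2 and 19.8 CPM in Control, at 30.3, 35 and 39.3 CPM in Cu_TCPP and at 6722, 6403 and 8016 CPM in Au_TCPP. The 3 groups did not overlap. Hspa1b rose 353-fold with Au_TCPP (log2 fold change 8.46 ± 0.15 SE, n = 3, adjusted p = 3.9e-14 by edgeR) and 1.75-fold with Cu_TCPP (log2 fold change 0.81 ± 0.118 SE, n = 3, adjusted p = 1.1e-04 by edgeR). By fitted fold change it ranked 3rd of 13915 genes for Au_TCPP against Control and 537th for Cu_TCPP against Control. Its FPKM rank went from 6183 in Control to 19 in Au_TCPP.

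The counts of Hspa1a were 0, 2 and 3 for the Control libraries, 0, 3 and 8 for the Cu_TCPP libraries and 1795, 2293 and 2242 for the Au_TCPP libraries. The Au_TCPP libraries stood apart, and the Control and Cu_TCPP counts overlapped. Summed over libraries and scaled, Au_TCPP was 1742 times Control (95% exact interval 746 to 5368, counting error only, 6330 against 5 counts). The edgeR test (adjusted p = 2.7e-11) adds no support, since Hspa1a was past the filter on low counts in 0 Control, 0 Cu_TCPP and 3 Au_TCPP libraries. For Cu_TCPP against Control the ratio was 2.22 with an interval of 0.712 to 8.17, from 11 against 5 counts, so no change was detectable at this depth (adjusted p = 0.40 by edgeR).

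The split of reads between these genes is uncertain. Of the 50-base stretches of the Hspa1b transcript 62.3% also occur in Hspa1a, and 49.9% of its 100-base stretches do. In Au_TCPP the counts of Hspa1a were 1.96, 2.54 and 2.16% of the counts of both genes. An annotated gene on the opposite strand, Gm20481, covers 564 of the 2967 exonic bases of Hspa1a and had no counts. The sources used here do not give how reads with several matches, or over both strands, were counted, and its part in the low level of Hspa1a was not tested. With both genes summed into 1, the log2 fold changes were 8.49 for Au_TCPP and 0.81 for Cu_TCPP against Control (adjusted p = 4.4e-14 and 1.2e-04 by edgeR).

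The promoters of Hspa1a and Hspa1b are printed because both genes went from low to high levels together and their upstream sequence is nearly the same. RefSeq windows (GRCm38.p6) from 250 bases before to 50 bases after the start were found for 7 of the 8 genes, without Hspa8. The windows of Hspa1a and Hspa1b differ at 4 of 300 bases. The stretches below run from -120 to -11 relative to the start, chr17:34972167-34972276 and chr17:34959249-34959358 on the minus strand, and are identical over their 110 bases. Capitals mark the pattern GAANNTTC, a pair of inverted GAA units as bound by heat shock factors, at -104 to -97.
Hspa1a: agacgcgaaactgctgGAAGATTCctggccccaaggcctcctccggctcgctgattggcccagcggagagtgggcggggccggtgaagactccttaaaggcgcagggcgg
Hspa1b: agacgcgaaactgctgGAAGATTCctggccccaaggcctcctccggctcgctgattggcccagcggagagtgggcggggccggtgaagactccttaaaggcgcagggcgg
GAANNTTC, which is its own reverse complement, occurs in 7.86% of the 32851 RefSeq windows of this length, and the equally palindromic TTCNNGAA in 8.52%. Either pattern or both occur in 15.1% of windows. Both genes also hold CCAAT on the reverse strand at -67 to -63, as do 37.4% of windows in either orientation. A letter match is a description and not a bound site.

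Hspa2 encodes an HSP70 known mainly from male germ cells, and it lies on the plus strand of mm10 chromosome 12, 76404176 to 76406938, with 1 exon in its main transcript. It was the lowest of the genes by FPKM in Au_TCPP, with 1.61, 1.78 and 1.64 CPM in Control, 0.851, 1.11 and 1.3 CPM in Cu_TCPP and 2.54, 3.64 and 2.60 CPM in Au_TCPP. The 3 groups did not overlap, but the whole table held only 15 to 50 counts per library for it. Its log2 fold change was 0.80 for Au_TCPP against Control (adjusted p = 0.015 by edgeR), a call that ended with library totals alone (adjusted p = 0.23) and without Control replicate 1 (0.057), Control replicate 3 (0.0501) or Au_TCPP replicate 2 (0.086). For Cu_TCPP against Control it was -0.62 and did not pass (adjusted p = 0.098 by edgeR). Au_TCPP was 2.68-fold above Cu_TCPP (adjusted p = 4.0e-04 by edgeR). Its window holds neither of the heat shock patterns, but the RefSeq start of that window, 76404370, lies inside the annotated gene interval given above.

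**Figure D2:**
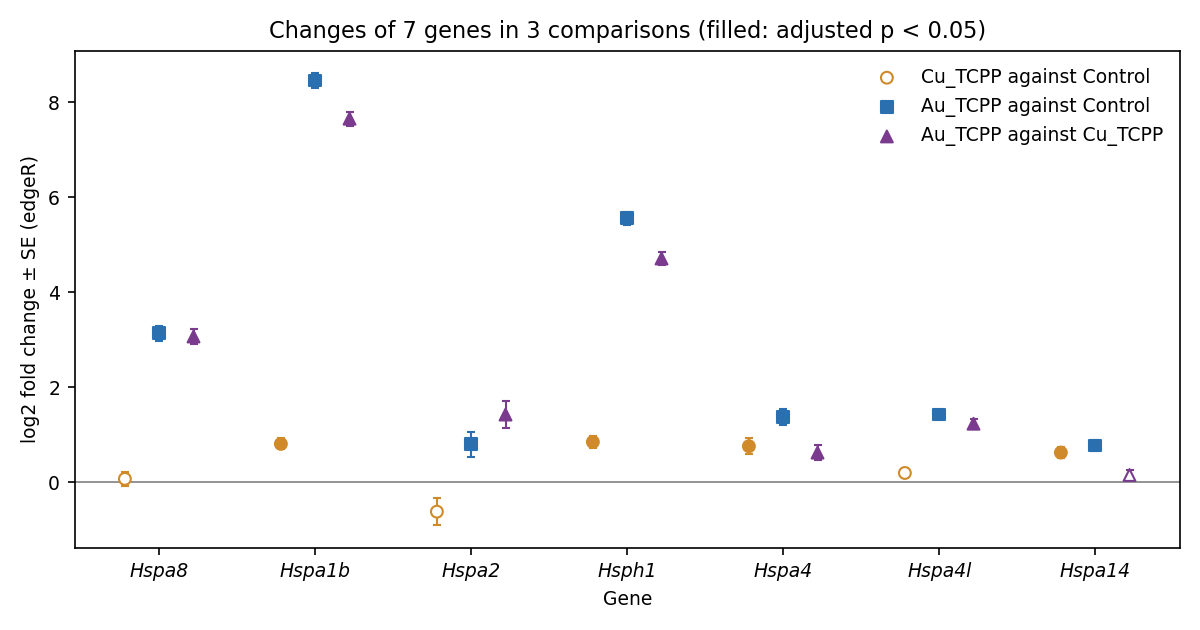
Log2 fold change ± SE from edgeR for 7 genes (Hspa1a is left out because its Control counts are 0 to 3) in the 3 comparisons, filled where the adjusted p was under 0.05. The Au_TCPP changes run from 0.77 for Hspa14 to 8.46 for Hspa1b, and the largest Cu_TCPP change shown is 0.85 for Hsph1.

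Hsph1 encodes HSP105, the stress-inducible HSP110, and lies on the minus strand of mm10 chromosome 5, 149614287 to 149636376 (ENSMUSG00000029657, 18 exons). It stood at 65.1, 62.5 and 64.2 CPM in Control, at 119.8, 111.1 and 114.2 CPM in Cu_TCPP and at 2890.3, 2494 and 3658 CPM in Au_TCPP. The 3 groups did not overlap. Hsph1 rose 1.80-fold with Cu_TCPP (log2 fold change 0.85 ± 0.119 SE, n = 3, adjusted p = 7.8e-05 by edgeR) and 47.1-fold with Au_TCPP (log2 fold change 5.56 ± 0.14 SE, n = 3, adjusted p = 2.0e-12 by edgeR). Au_TCPP was 26.2-fold above Cu_TCPP. None of its 50-base stretches occurs in the transcripts of another gene. Hsph1 is the other member whose windows hold heat shock patterns, shown here in capitals, first at -64 to -5 from the RefSeq start at 149636336 (chr5:149636341-149636400, minus strand) and then at 28 to 50 after it (chr5:149636287-149636309, minus strand).
Hsph1 first stretch: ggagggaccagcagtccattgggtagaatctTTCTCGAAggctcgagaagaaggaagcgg
Hsph1 second stretch: tgctgcagaTTCTGGAAAGTTCt
The first match is TTCNNGAA at -33 to -26 from that start and at -54 to -47 from a RefSeq start at 149636315, and it lies inside the annotated gene interval given above. The second match, at 37 to 49 from the former start and 16 to 28 from the latter, holds 3 alternating units, TTC, NN, GAA, NN and TTC in a row. That pattern or its reverse complement occurs in 0.603% of the 32851 windows, and it contains a match to each shorter pattern. Neither pattern occurs in the windows of Hspa4, Hspa4l or Hspa14, which says only that these letters are not in these 300 bases. The Hspa4l window is set on a RefSeq start at 40745613 and lies wholly inside the annotated gene, which begins at 40744495. The sequence before that annotated beginning was therefore not searched. No window of the 7 genes holds TATAAA, against 13.6% of all windows.

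Hspa4 encodes APG-2, a constitutive HSP110 (ENSMUSG00000020361, mm10 chromosome 11, 53259814 to 53300457, minus strand, 19 exons). It stood at 326.7, 324.4 and 305.1 CPM in Control, at 565.6, 516.8 and 533.4 CPM in Cu_TCPP and at 848, 571 and 1067 CPM in Au_TCPP. The groups did not overlap, although Au_TCPP replicate 2 lay only just above the highest Cu_TCPP library. Hspa4 rose 1.69-fold with Cu_TCPP and 2.60-fold with Au_TCPP (adjusted p = 0.0024 and 5.4e-06 by edgeR). Au_TCPP was 1.54-fold above Cu_TCPP (adjusted p = 0.0041 by edgeR), a call that ended with library totals alone (log2 fold change 0.23, adjusted p = 0.15).

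Hspa4l encodes APG-1, the third HSP110 (ENSMUSG00000025757, mm10 chromosome 3, 40744495 to 40796103, plus strand, 19 exons). It stood at 270.0, 277.5 and 251.5 CPM in Control, at 330.9, 272.2 and 310.1 CPM in Cu_TCPP and at 628.1, 750.4 and 764.7 CPM in Au_TCPP. Here the Control and Cu_TCPP libraries overlapped, and Au_TCPP replicate 2 was not the lowest of its group. Hspa4l rose 2.68-fold with Au_TCPP (adjusted p = 2.0e-08 by edgeR). With Cu_TCPP its log2 fold change was 0.19 (95% interval -0.02 to 0.41, adjusted p = 0.14 by edgeR), and it passed in a fit of the 6 libraries alone (0.022), with an offset for gene length (0.021) and without Au_TCPP replicate 2 (0.043). It is the longest gene of the set at 11792 bases, and the same offset gave a log2 fold change of 1.88 in place of 1.42 for Au_TCPP against Control.

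Hspa14 encodes the HSP70 that sits with the J-domain protein of Dnajc2 on ribosomes and binds new chains (ENSMUSG00000109865, mm10 chromosome 2, 3488850 to 3512814, minus strand, 14 exons). It stood at 39.9, 43.9 and 38.2 CPM in Control, at 64.5, 58.7 and 64.6 CPM in Cu_TCPP and at 73.6, 56.4 and 78.5 CPM in Au_TCPP. All treated libraries lay above all Control libraries, and the treated groups overlapped. Hspa14 rose 1.54-fold with Cu_TCPP and 1.71-fold with Au_TCPP (adjusted p = 5.8e-04 and 2.6e-05 by edgeR). Au_TCPP against Cu_TCPP had a log2 fold change of 0.15 (95% interval -0.09 to 0.39, adjusted p = 0.25 by edgeR), which was 0.24 without Au_TCPP replicate 2 (adjusted p = 0.013) and -0.23 with library totals alone (adjusted p = 0.048). Its partner Dnajc2 rose by 0.67 log2 units with Cu_TCPP and by 1.30 with Au_TCPP. A predicted gene on the same strand, Gm45902, shares 321 of the 4057 exonic bases of Hspa14 and had 80 counts per library in Control, 110.7 in Cu_TCPP and 40.7 in Au_TCPP, so the division of reads between them is uncertain.

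Per kilobase, the order of the genes differed between groups. FPKM divides by the deposited gene length, which for Hspa8 was 4301 bases against 2394 in its main transcript. For Hsph1 these were 7266 and 3802 bases, and for Hspa1b 2803 in both. Orders, shares and ratios between genes hold for that length alone. They also depend on how reads with several matches were counted, which is not given. Of the 50-base stretches, 62.3% of those of Hspa1b and 38.6% of those of Hspa8 occur in other genes, against 0% for Hsph1 and Hspa4. In Control the order by FPKM was Hspa8, Hspa4, Hspa4l, Hspa14, Hsph1, Hspa1b, Hspa2 and Hspa1a, with no overlap between neighbours. In Cu_TCPP Hsph1 came before Hspa14 but the pair overlapped, at 15.9 ± 0.61 and 15.5 ± 0.855 FPKM (SD, n = 3), and the other genes kept their places. In Au_TCPP the order was Hspa8 at 3112 ± 811 FPKM, Hspa1b at 2456 ± 309.9 FPKM and Hsph1 at 405 ± 81.8 FPKM, followed by Hspa4, Hspa4l, Hspa1a, Hspa14 and Hspa2 (SD, n = 3). By this measure Hspa8 overlapped Hspa1b there, and Hspa4l overlapped Hspa1a. The 8 genes summed to 460.1 ± 5.91 FPKM in Control, 550.2 ± 30.8 FPKM in Cu_TCPP and 6249 ± 1231 FPKM in Au_TCPP (SD, n = 3). As a share of all counts they took 0.253% ± 0.00183, 0.29% ± 0.0165 and 2.11% ± 0.309 (SD, n = 3).

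Within that sum, Hspa8 held 76.7 to 78.2% of the FPKM in Control, 68.9 to 70.3% in Cu_TCPP and 44.7 to 51.8% in Au_TCPP. Hspa1b held 1.45 to 1.61% in Control, 1.94 to 2.47% in Cu_TCPP and 37.5 to 44.1% in Au_TCPP. With the same deposited gene lengths, the ratio of Hspa1b to Hspa8 FPKM was 0.0189, 0.0209 and 0.0192 in Control and 0.727, 0.985 and 0.728 in Au_TCPP. Among the HSP110 genes, the ratio of Hsph1 to Hspa4 was 0.146 to 0.16 in Control, 0.161 to 0.163 in Cu_TCPP and 2.59 to 3.32 in Au_TCPP. The 3 HSP110 genes together stood at 0.241 ± 0.0124 of the summed FPKM of Hspa8, Hspa1a, Hspa1b and Hspa2 in Control, at 0.355 ± 0.0187 in Cu_TCPP and at 0.109 ± 0.00303 in Au_TCPP (SD, n = 3). The ratio was thus higher in all Cu_TCPP libraries and lower in all Au_TCPP libraries than in any Control library. With 3 against 3 libraries an exact permutation test cannot go below 0.10, so no p is given for these ratios.

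**Figure D3:**
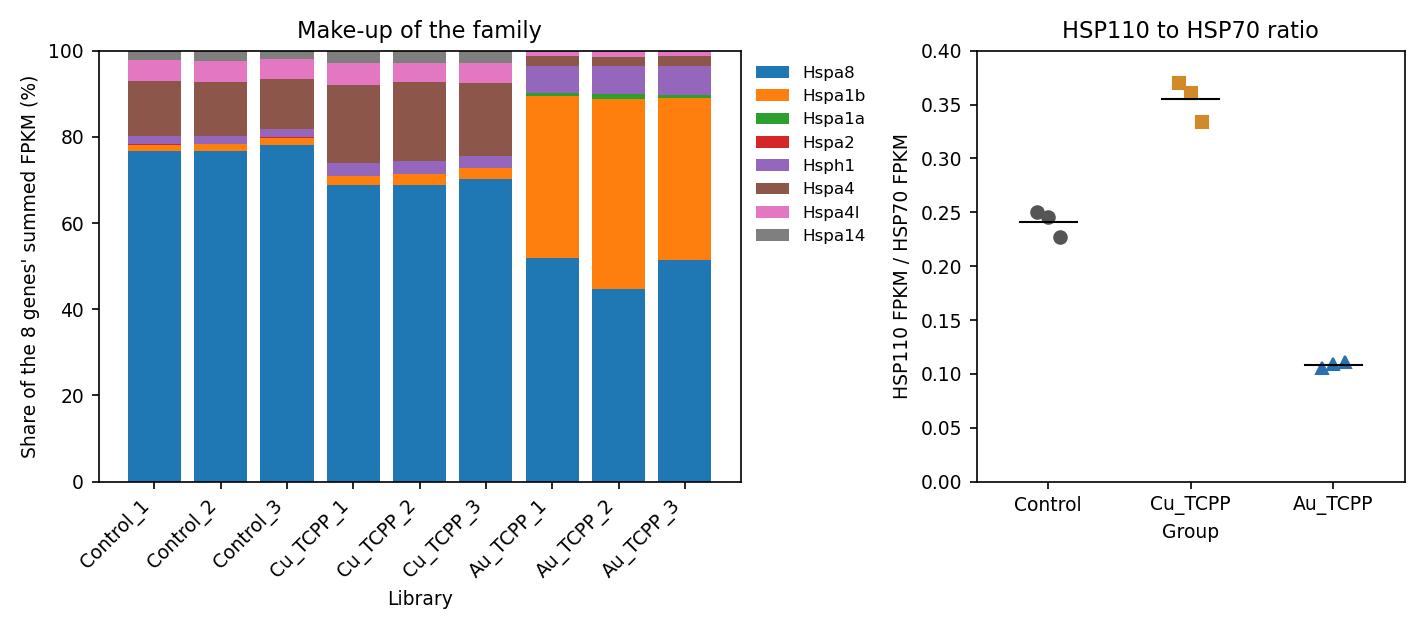
Left, the share of each gene in the summed FPKM of the 8 genes (%) in each library. Right, the ratio of HSP110 (Hspa4, Hspa4l, Hsph1) to HSP70 (Hspa8, Hspa1a, Hspa1b, Hspa2) FPKM per library with a bar at the mean, near 0.241 in Control, 0.355 in Cu_TCPP and 0.109 in Au_TCPP.

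Among 14 J-domain partners of cytosolic HSP70, 13 rose and 1 fell with Au_TCPP, where 34.4% of all genes tested were called higher and 34.7% lower. Their median log2 fold change was 1.04, against -0.01 for all genes. For Cu_TCPP the median was 0.37, from 7 that rose, 0 that fell and 7 under neither call, where 19.2% of all genes were called higher and 21.2% lower. This list and those below were chosen with earlier results of these data known, so their counts beside all genes only describe. Dnajb1, which encodes the main inducible HSP40, stood at 39.2, 40.2 and 41.3 CPM in Control, 62.6, 62.7 and 60.0 CPM in Cu_TCPP and 2345, 1729 and 2690.3 CPM in Au_TCPP. Its log2 fold change with Au_TCPP was 5.81 ± 0.154 (SE, n = 3, adjusted p = 3.0e-12 by edgeR), close in size to that of Hsph1. Dnajb4 and Dnaja4, also J-domain genes, rose by 4.53 and 5.07 log2 units with Au_TCPP. With Cu_TCPP the smallest p-values belonged to Dnajb2, Dnajc2 and Dnajc21, which rose by 0.50, 0.67 and 0.46 log2 units. Dnajc13, whose product works on endosomes, fell by 0.87 log2 units with Au_TCPP and stood at -0.02 with Cu_TCPP, which did not pass.

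Among 12 exchange factors, inhibitors and cochaperones, 9 rose and 3 fell with Au_TCPP (median log2 fold change 0.65), beside 34.4% called higher and 34.7% lower among all genes. With Cu_TCPP 7 rose and 1 fell (median 0.26), beside 19.2% and 21.2%. Bag3, an exchange factor that links HSP70 to autophagy, stood at 49.1, 49.2 and 51.6 CPM in Control and 592, 465 and 650.0 CPM in Au_TCPP, a log2 fold change of 3.51 (adjusted p = 2.2e-11 by edgeR). St13 and Stip1, whose products are HIP and the HSP70-HSP90 adaptor HOP, rose by 1.63 and 1.74 log2 units. The genes that fell with Au_TCPP were Bag4, Bag6 and Stub1, the last of which encodes the ubiquitin ligase CHIP, with log2 fold changes of -0.72, -0.67 and -0.58. Bag6 also fell with Cu_TCPP, by 0.27 log2 units, and Tomm70a, Hspbp1 and Stip1 rose there by 0.54, 0.51 and 0.43. With library totals alone Tomm70a was at -0.12 in Au_TCPP against Control, where it had risen by 0.31.

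**Figure D4:**
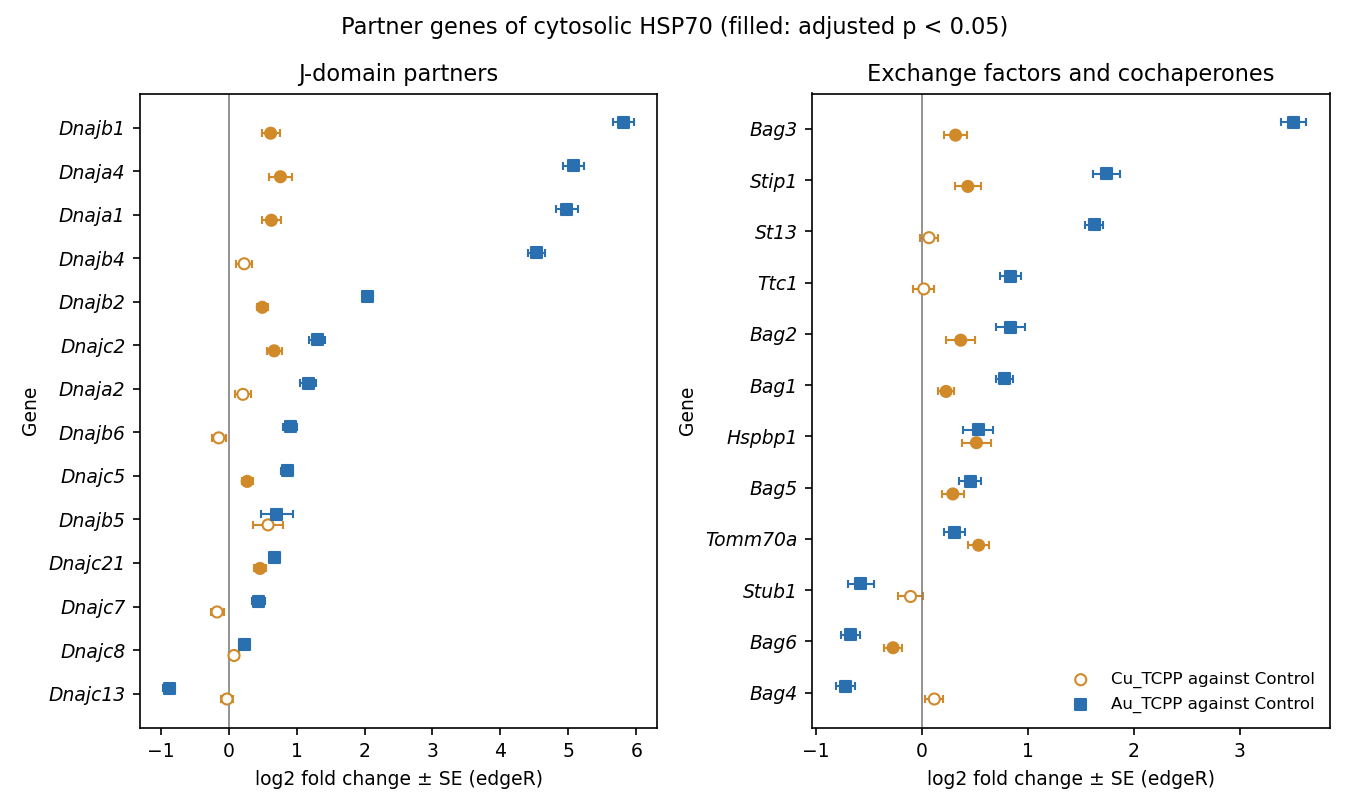
Log2 fold change ± SE from edgeR of 14 J-domain genes (left) and 12 exchange factors and cochaperones (right) for Cu_TCPP and Au_TCPP against Control, filled where the adjusted p was under 0.05. For Au_TCPP, Dnajb1 and Bag3 lead the panels at 5.81 and 3.51, and Dnajc13, Stub1, Bag6 and Bag4 lie below 0.

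Of 6 tested HSP70 and HSP110 genes outside the 8, namely Hspa5, Hspa9, Hspa13, Hyou1, Hspa1l and Hspa12b, 3 rose and 0 fell with Au_TCPP, where 34.4% of all genes tested were called higher. With Cu_TCPP 2 rose and 0 fell, where 19.2% were called higher. The median log2 fold changes were 0.35 and 0.32, against -0.01 for all genes in both comparisons. Hspa5, the HSP70 of the endoplasmic reticulum also called BiP, rose by 0.82 log2 units with Cu_TCPP and by 3.20 with Au_TCPP, from 942 ± 9.61 CPM in Control to 8688 ± 2229 CPM in Au_TCPP (SD, n = 3). Hyou1, the HSP110 relative of the same compartment, rose by 0.73 and 0.66 log2 units with the materials, and Au_TCPP against Cu_TCPP stood at -0.07, which did not pass. Hspa9, the mitochondrial HSP70, rose by 0.81 log2 units with Au_TCPP, and its value with Cu_TCPP was 0.03, which did not pass. Hspa1l, the third gene of the Hspa1 cluster, stood at 0.448, 1.6 and 0.473 CPM in Au_TCPP and 0.834, 0.593 and 1.04 CPM in Control and did not pass (adjusted p = 0.94 by edgeR).

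Of 16 tested heat shock factors and other heat shock genes, 15 rose and 0 fell with Au_TCPP (median log2 fold change 2.49), beside 34.4% of all genes called higher and 34.7% lower. With Cu_TCPP 9 rose and 1 fell (median 0.56), beside 19.2% and 21.2%. Hsf1, the factor itself, rose by 0.59 log2 units with Cu_TCPP (adjusted p = 2.4e-04 by edgeR) and stood at -0.16 with Au_TCPP, which did not pass (adjusted p = 0.15 by edgeR). Hsf1 was chosen for mention after its values were seen. Hspb8, a small heat shock protein that works with Bag3, Hspe1, the mitochondrial HSP10, and the polyubiquitin gene Ubb rose by 4.28, 2.95 and 3.66 log2 units with Au_TCPP. Cacybp, Ahsa1 and Hsp90aa1, all tied to HSP90, had the smallest p-values with Cu_TCPP and rose by 0.88, 0.71 and 1.03 log2 units. The single gene that fell with Cu_TCPP was Hspb6, by 0.73 log2 units.

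Outside the 8 members, and leaving out pseudogenes and predicted genes, the genes with the most similar pattern over the 9 libraries were taken as those with the smallest root-mean-square difference from a member, in log2 CPM after removing each gene's own mean. For Hspa8 these were Ifrd1 and Ptgs2, at 0.13 and 0.14 log2 units, and for Hsph1 Gadd45g and Dnajb1, at 0.17 and 0.20. For Hspa4 they were Psmd6 and Psmd12, genes of proteasome subunits, at 0.07 and 0.08. For Hspa14 they were Psmd13, also a proteasome gene, and Adam8, at 0.05 each. The nearest genes were Naca and Erp44 for Hspa4l, at 0.10 and 0.11, and Tor3a and Lbh for Hspa2, at 0.11 each. Hspa1b had no such close match: its nearest genes, Atf3 and Hmox1, lay at 0.75 and 0.81 log2 units. The distance is not scaled to the size of change. Hspa1b ranked 3rd of 13915 genes by fold change with Au_TCPP, so few genes changed by as much. Outside the members Atf3 and Hmox1 also came nearest to Hspa1a, at 1.38 and 1.59, but Hspa1b was closer to it, at 0.85. The Hspa1a distances rest on 0 to 8 counts per library in Control and Cu_TCPP. These distances mainly follow the 3 group means and carry no test.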

How the data were processed

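RNA-seq libraries were made from mRNA with QIAGEN's QIAseq FX kit for single-cell RNA, per the labels. The submitters' processing notes name mm10, Bowtie 0.12.9, Cufflinks 2.1.1 and HTSeq, with no roles. The authors deposited read counts per gene, and FPKM, which the authors scaled for length and depth, per the file headers. How strands and reads with several matches were handled is not stated there. The test on counts was edgeR 4.0.16's quasi-likelihood test under R 4.3.3 (filterByExpr, TMM, robust, 1 mean per group over all 9 libraries, Benjamini-Hochberg adjustment over 13915 genes, threshold 0.05). Intervals of fold changes use the fit's degrees of freedom at 95%. FPKM served for levels between genes, and CPM for levels within a gene. Named genes were the 8 members, for each list and comparison the 3 called genes with the smallest p, and the 2 nearest genes per member outside the 8. Dnajc13, Bag4, Bag6, Stub1, Hspb6, Hsf1, Hspa12b and Hspa1l fall outside that rule and were chosen after their values were seen. The members and lists were chosen with earlier results of these data known. Alternatives were RLE factors, library totals, no filter, at least 1 CPM in 3 libraries, a fit of only the 6 libraries compared, DESeq2 1.42.0, a replicate block, an offset for gene length (spline with 5 degrees of freedom), limma 3.58.1 on log2(FPKM + 1) and log2(FPKM + 0.1), both Hspa1 genes summed, and leaving out each library. The fit was run on simulated data in which few genes changed, by small folds and equally in both directions. That setting is unlike Au_TCPP and does not test the scaling there. The values of 1 marker gene are not reported here. Sequence matches came from GENCODE M21 transcripts and RefSeq promoter windows, both on the files' build.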

Additional observations from a re-analysis of the deposited data

How the results depend on the processing

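In the alternatives with library totals alone, 2626 genes were called higher in Au_TCPP than in Control and 2830 higher than in Cu_TCPP, and 1 of the 8 members, Hspa14, was called lower than in Cu_TCPP (log2 fold change -0.23). Under the same scaling Tomm70a in Au_TCPP against Control (-0.12) and Dnajc21 and Hspbp1 in Au_TCPP against Cu_TCPP (-0.15 and -0.37) changed sign. Libraries with the same replicate number did not deviate together (correlations from -0.08 to 0.09). That gives no sign of pairing by number but cannot exclude it. The replicate block left 4, 8 and 7 members called higher for Cu_TCPP against Control, Au_TCPP against Control and Au_TCPP against Cu_TCPP, as without it, and called 5508, 9505 and 9059 genes. It changed no member's call. Leaving out 1 library gave 4226 to 7179, 8859 to 10109 and 8521 to 9622 genes, and 4 to 5, 7 to 8 and 7 to 8 members called higher. Over all alternatives, log2 fold changes for Au_TCPP against Control lay between 8.04 and 8.50 for Hspa1b, 5.13 and 5.85 for Hsph1, 2.70 and 3.30 for Hspa8, 1.00 and 1.88 for Hspa4l and 0.94 and 1.58 for Hspa4, all called. For Cu_TCPP against Control, Hspa1b lay between 0.72 and 0.92 and Hsph1 between 0.80 and 0.93, all called. The low counts of Hspa1a outside Au_TCPP and of Hspa2 limit what can be said of Cu_TCPP for these genes.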
